A study of Bos taurus with 16 samples.

Results

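Bovine kidney RNA after 1 round of linear amplification was set against a reference RNA on a custom 2-colour cDNA array. These are the 4 arrays that the labels call Round 1, of 16 arrays in the series, and they hold 2 of its 8 kidney RNAs, named Kidney 1 and Kidney K. Each RNA was hybridised on 2 arrays of opposite dye, once with kidney in Cy3 and once with kidney in Cy5. The other 12 arrays carry the same 2 replicate names at round 0 (total RNA that was not amplified), round 2 and round 3. The second channel of every array held 1 reference standard RNA, which the labels describe as amplified for 2 rounds and whose tissue they do not give. At round 1, kidney RNA amplified for 1 round was therefore compared with reference RNA amplified for 2 rounds, so that a difference in tissue and a difference in amplification cannot be told apart. The labels do not say whether Kidney 1 and Kidney K are separate animals, so a p-value reflects the spread between these RNAs alone, which may be technical. They give no age or strain of the cattle.

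The kidney filters blood in its glomeruli and then recovers water, ions, sugars, amino acids and peptides along the tubule. The proximal tubule does most of this work with a brush border of transporters and peptidases and with a metabolism that relies on fatty acids, while the distal tubule and collecting duct adjust salt, calcium, acid and water under hormonal control. Linear amplification copies RNA by reverse transcription from oligo(dT) with a T7 promoter and then by in vitro transcription. From the title of the series, the arrays served to test that method for use on single bovine embryos.

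Each value given here is the log2 of the kidney signal over the reference signal, with the array's median set to 0, for a feature, which is a cDNA clone spotted in duplicate. A log2 ratio of 1 is a 2-fold difference and a log2 ratio of 3 is an 8-fold difference. A mean ratio stands with its SD between the dye-swap means of the 2 RNAs (n = 2). A feature was called when limma's adjusted p against a ratio of 0 was under 0.05, with the spread estimated over all 8 kidney RNAs. An exact test cannot reach that threshold here, since the smallest two-sided p that 2 RNAs allow is 0.5. The direction of the ratio is likely rather than stated. It was taken as Cy5 over Cy3, and with that choice the tubule genes had medians of 2.95 and 2.99 on the Cy3 and Cy5 arrays of Kidney 1 and of 2.62 and 2.76 on those of Kidney K. The sign of the tubule genes is thus a choice and no finding, and with the opposite direction every sign below would turn.

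Between 14182 and 15369 of the 16896 spots on the 4 arrays had a usable ratio (83.9% to 91.0%), and duplicate spots correlated at 0.607 to 0.822 across features. The array with Kidney 1 in Cy3 had the fewest. Its column ends in 1017 empty spots and then 69 whole numbers that are no log ratios, of which the 52 beyond 10 in size were dropped and the other 17 moved the count of calls by 1. The 2 RNAs correlated at 0.735 over the 5537 features tested. Arrays of the same orientation correlated at 0.708 (Cy3) and 0.670 (Cy5) between RNAs, and the arrays of opposite orientation of 1 RNA correlated at 0.586 (Kidney 1) and 0.245 (Kidney K). These correlations describe features that share arrays and dyes, and no p was attached to them.

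Of 5537 features tested, 2092 were called (37.8%), and the tested features of 1 gene stand for 4360 genes. Kidney was above the reference for 937 (16.9%) and below it for 1155 (20.9%), and these shares are the background for every gene group below. The background moved with the setting: the share below was 15.1% without Kidney 1, 11.5% without Kidney K, 28.5% with only the Cy3-kidney arrays and 14.1% with only the Cy5-kidney arrays. All 4 arrays gave the same sign for 1727 of the called features, among the 2028 that were measured on 4 arrays. The called ratios were often large: 621 features above and 622 below passed 1 in size, and 50 above and 23 below passed 3, while the median SD between the RNAs was 0.26. The medians of the calls were 1.23 above and -1.05 below, and the smallest called ratio was 0.44 in size. The median of all tested features was 0.04, and without centring it was -0.30, with 353 called above and 1113 below, so that ratios are relative to the centre of the array. Intensities were not analysed here, so that the dimness of a spot is not known.

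The genes described first are the 12 with the highest and the 12 with the lowest ratio among called features of 1 gene that had 1 sign on all 4 arrays. The highest was ZNF350, a zinc finger repressor of transcription. It stood at 5.60 and 5.17 for Kidney 1 (Cy3 and Cy5) and at 4.93 and 5.59 for Kidney K, a mean of 5.32 ± 0.09 (adjusted p = 9.49e-05). ENPEP, the aminopeptidase A of the brush border, had 4.77 and 5.83 for Kidney 1 and 4.29 and 5.98 for Kidney K, with a mean of 5.22 ± 0.12. AQP1, a water channel found in the proximal tubule and thin descending limb, had 4.80 and 5.30 for Kidney 1 and 4.0 and 5.91 for Kidney K, with a mean of 5.01 ± 0.07. Every array placed these 3 genes near or above 4, and for ENPEP and AQP1 the arrays with kidney in Cy5 were the higher ones in each RNA. GATA3, a transcription factor of kidney development and the collecting duct, had a mean of 4.92 ± 0.45, and TXNIP, the thioredoxin-interacting protein that restrains glucose uptake, one of 4.74 ± 0.71. GPX3, a secreted glutathione peroxidase whose plasma pool comes largely from the kidney, stood at 4.83 and 4.72 for Kidney 1 and at 3.93 and 4.34 for Kidney K, a mean of 4.45 ± 0.46. S100G, a calcium-binding protein of the distal tubule that depends on vitamin D, had 4.61 and 4.61 for Kidney 1 and 3.95 and 4.58 for Kidney K, with a mean of 4.44 ± 0.24.

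The next genes under these conditions were MTSS1, which binds actin and membranes (4.24 ± 0.06), PDZK1IP1, a small membrane protein of the brush border (4.09 ± 0.05), and ABCA1, a cholesterol exporter (3.97 ± 0.74). LOC338050 (3.95 ± 0.60) and AHCYL2, a relative of adenosylhomocysteinase (3.95 ± 0.99), completed the 12. DPP4, at 4.54, was measured on only 3 arrays and is therefore not among them. AHCYL2 had the widest spread of these, at 6.19 and 3.11 for Kidney 1 and 4.04 and 2.47 for Kidney K, and its Cy3 value was the higher in each RNA. Its 2 other clones, at 3.34 and 3.41, were called as well. For GATA3 and ABCA1 other clones did not share the ratio: another GATA3 clone stood at 0.43, and 3 other ABCA1 clones at 0.08, -0.10 and -1.53, none of them called.

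Farthest below was TCAM1, a testicular cell adhesion molecule, with -4.77 and -4.60 for Kidney 1 and -4.82 and -5.08 for Kidney K, a mean of -4.82 ± 0.18 (adjusted p = 0.000522). PCLAF, which binds the sliding clamp PCNA during DNA replication, had -3.74 and -4.24 for Kidney 1 and -4.57 and -3.89 for Kidney K, with a mean of -4.11 ± 0.17. ANKRD1, an ankyrin repeat protein of striated muscle that is also induced by stretch and YAP signalling, stood at -4.18 and -4.19 for Kidney 1 and at -3.97 and -4.04 for Kidney K, a mean of -4.09 ± 0.13. The 4 arrays of these genes spanned less than 1 on the log2 scale. Also among the 12 farthest below were the caveolin CAV1 (-3.82 ± 0.56), fibronectin FN1 (-3.63 ± 0.31), the intermediate filament vimentin VIM (-3.51 ± 0.42) and the galectin LGALS3 (-3.46 ± 0.03). Second clones of FN1 (-3.62), VIM (-3.31) and LGALS3 (-3.31) were called at nearly the same ratio.

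The remaining genes of the 12 farthest below were metabolic or mitotic. BCAT1, the cytosolic branched-chain aminotransferase, stood at -3.51 ± 0.34, LDHA, the lactate dehydrogenase of glycolytic cells, at -3.41 ± 0.13, and ME1, the cytosolic malic enzyme that makes NADPH, at -3.27 ± 0.66. SPC24, a kinetochore subunit, had a mean of -3.47 ± 0.01, which hid a dye gap, with -3.49 and -3.47 for Kidney 1 and -2.56 and -4.36 for Kidney K. NT5E, the ecto-nucleotidase CD73, stood at -3.29 ± 0.01. None of the 12 genes above and the 12 below changed sign on any of the 4 arrays, which is a condition of the rule that chose them.

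**Figure D1:**
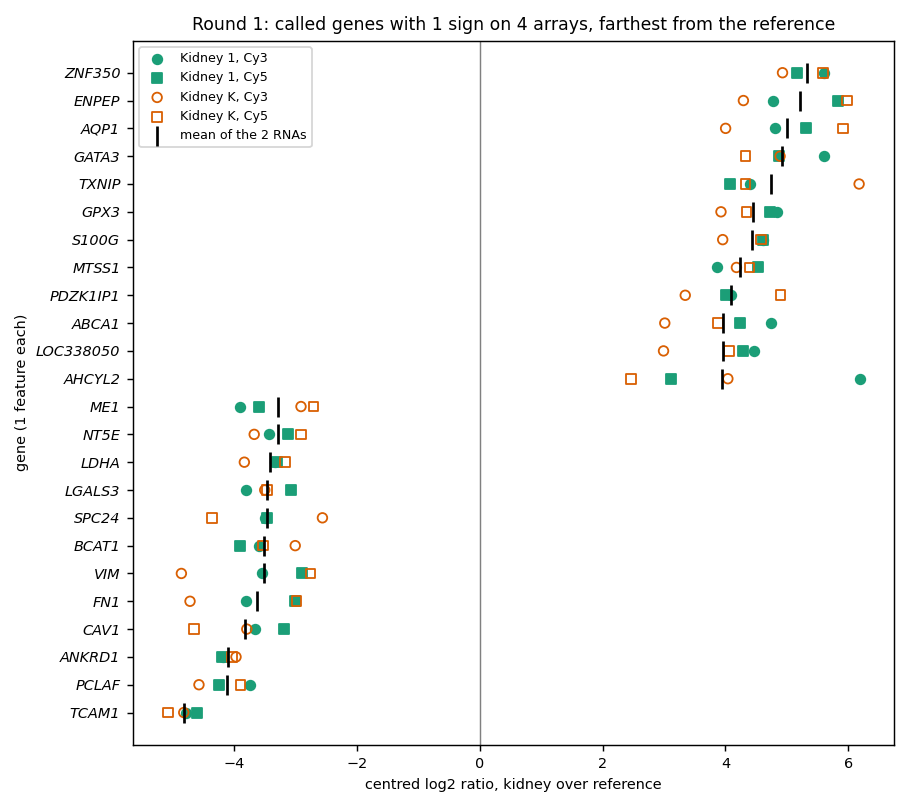
Centred log2 ratio of kidney over reference (x axis) for the 12 genes farthest above and the 12 farthest below the reference at round 1 among called features of 1 gene with 1 sign on all 4 arrays, 1 feature per gene (y axis). Green symbols are Kidney 1 and orange symbols Kidney K, circles are arrays with kidney in Cy3 and squares arrays with kidney in Cy5, and the black bar is the mean of the 2 RNAs. ZNF350 leads above at 5.32 and TCAM1 below at -4.82, and AHCYL2 has the widest spread among those above.

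Nephron genes were above the reference from the proximal tubule to the collecting duct. Of 14 features of proximal tubule genes, 10 were called above and 0 below, with a median of 3.63 (median of all tested features 0.04). Besides ENPEP, AQP1, GPX3 and PDZK1IP1 they were the peptidases DPP4 (4.54), ANPEP (3.50) and MME (2.33), the scaffold PDZK1 (3.76), the cationic amino acid transporter subunit SLC7A7 (3.87) and the fatty acid transporter SLC27A2 (2.66). A second MME clone (1.44), 2 clones of the glutathione hydrolase GGT1 (0.71 and 0.51) and the urea cycle enzyme ASS1 (0.20) were not called. Of 19 features of the loop, distal tubule and collecting duct, 13 were called above and 0 below, with a median of 2.47. They include ATP1B1, the beta subunit of the sodium pump (3.83 ± 0.71), the epithelial sodium channel subunits SCNN1A (3.46) and SCNN1G (3.08), 3 clones of the water channel AQP3 (2.87, 2.78 and 2.47), the carbonic anhydrase CA2 (2.76) and HSD11B2, which inactivates cortisol (2.25). The sign of these lists set the direction of the ratio and is no result. Within them, second clones of GATA3 (0.43), CA12 (-0.31) and ATP1B1 (-1.56) and the calcium channel TRPV6 (-0.41) were not called. The tubule markers UMOD, SLC12A1, AQP2 and LRP2 and the podocyte marker NPHS1 had no tested feature.

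Other kidney compartments were represented unevenly. Of 4 glomerular features, CD2AP, an adaptor of the podocyte slit diaphragm, was called above (1.74 ± 0.34, adjusted p = 0.00205), and SYNPO (0.62), ACTN4 (0.22) and PLCE1 (0.14) were not called. Among 16 endothelial features, 10 were called above and 0 below, with a median of 1.46. The angiopoietin receptor TEK stood at 3.28 and 3.99 for Kidney 1 and at 3.68 and 4.51 for Kidney K (3.87 ± 0.32). The VEGF receptor KDR (3.20 ± 0.83, other clone 2.14), the fenestral diaphragm protein PLVAP (3.16 ± 0.05) and both clones of PECAM1 (1.76 and 1.48) were also called, while CDH5 (-0.10) and FLT1 (1.40) were not. In these bulk samples, fewer cells of a type and less RNA per cell cannot be told apart.

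Genes of the stroma and of muscle lay mostly on the other side. Of 34 features of stroma and extracellular matrix, 5 were called above and 16 below, with a median of -0.55. FN1, VIM, the metalloproteinase inhibitor TIMP1 (-3.05 ± 0.60), tenascin TNC (-2.83) and the collagen COL12A1 (-2.52 and -1.87) were below the reference. The calcification inhibitor MGP was 3.66 and 4.05 for Kidney 1 and 3.19 and 4.52 for Kidney K, so that all arrays were above 3, and the basement membrane collagen COL4A1 (1.83 ± 0.68, other clone 0.89) and FBLN2 (1.62 ± 0.03) were called above as well. The fibrillar collagens COL1A2 (-0.13 and -0.22) and COL3A1 (-0.37) were not called. Of 12 features of contractile genes, 7 were below and 2 above, with a median of -1.48. They include tropomyosin TPM1 (-2.62 ± 0.14) and the smooth muscle myosin MYH11 (-2.51 ± 0.74) below. Above was MYL9 (0.87), and desmin DES had a clone on each side (1.32 and -1.69), but 0 or 1 contractile features were above in the 9 alternatives tried for the lists. With only the Cy5-kidney arrays 8 of the stroma features were below, as were 8 without Kidney K and 10 without its array in Cy3.

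Immune genes were close to the background. Of 22 features, 2 were above and 4 below, with a median of -0.24. The actin-binding proteins of leukocytes CORO1A (-2.01 ± 0.05) and LCP1 (-1.38 ± 0.10, other clone -1.12) and the immunoglobulin chain IGHM (-1.29) were below, and the macrophage gene AIF1 (1.69) and a clone of the lymphoid factor IKZF3 (0.92) above. CD14 (0.70 and -0.57), CD68 (0.83), CD3D (-0.61) and CD8A (-0.35) were not called. No globin or other blood cell gene and no mitochondrially encoded gene of the lists had a tested feature.

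Placental and imprinted genes lay on both sides. Among 42 features of the placenta and trophoblast list, 6 were above and 4 below, with a median of 0.23 that was -0.09 with only the Cy5-kidney arrays and -0.10 without the array of Kidney K in Cy3. Below was HSD3B1, a steroid dehydrogenase of placenta and other steroid-making tissue, with clones at -3.13 ± 0.33 and -3.09, and above was the prolactin-related PRP1 (1.02 ± 0.01). The pregnancy-associated glycoproteins PAG11 (1.05) and PAG12 (-0.77 ± 0.46) were called on opposite sides. Of 28 imprinted features, 7 were above and 3 below, with a median of 0.18. Without centring, which takes the median of all features to -0.30, those of the placental and imprinted lists were -0.16 and -0.15. The growth-suppressing noncoding RNA H19 had a clone at 2.50 and 2.76 for Kidney 1 and at 1.71 and 3.16 for Kidney K (2.53 ± 0.14). Its other clone was at -0.15 and 0.45 for Kidney 1 and at 0.28 and -0.05 for Kidney K, and was not called (0.13 ± 0.02). The zinc finger gene PLAGL1 (1.93 ± 0.14) and MEST (1.51 ± 0.05) were above, and NAP1L5 was below (-1.26 ± 0.17). With only the Cy3-kidney arrays 13 of 33 placenta features were above (20.2% of all features there). Without the array of Kidney K in Cy3 it was 3 of 42 (15.5% of all features there), and without Kidney 1 the placenta median was 0.21. Of the imprinted features 3 were above and 1 below without Kidney K, and 1 was below without Kidney 1.

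Energy metabolism divided by pathway. Fatty acid uptake and oxidation had 13 of 28 features above and 5 below, with a median of 0.59. CPT1A, which admits long-chain fatty acids to mitochondria, stood at 3.18 and 3.61 for Kidney 1 and at 3.04 and 4.13 for Kidney K (3.49 ± 0.13, other clone 2.58). The dehydrogenases HADH (2.51 ± 0.18) and HADHA (2.41), the acyl-CoA synthetase ACSL1 (2.42) and both clones of the isomerase ECI2 (1.74 and 1.45) were above as well. The 5 features below were 4 clones of the fatty acid binding protein FABP5 (-0.65 to -0.93) and 1 clone of ACSL5 (-1.19 ± 0.06), whose other clone stood at 0.59. Without Kidney K 1 fatty acid feature was below, and without Kidney 1 there were 3. Glycolysis and gluconeogenesis had 0 of 23 features above and 17 below, with a median of -0.88, and 11 were below without Kidney K. LDHA led these, followed by the glucose transporter SLC2A3 (-2.48 ± 0.28, other clone -1.91), PGK1 (-1.72 ± 0.39), TKT (-1.72), ENO1 (-1.61) and GAPDH (-1.57), while ALDOA (0.34 and -0.56) and PKM (-0.10) were not called. The gluconeogenic enzymes of the list had no tested feature.

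The citric acid cycle had 8 of 20 features above and 1 below, with a median of 0.48. DLD, a subunit shared by 2-oxoacid dehydrogenases, was at 1.35 ± 0.04 with its other clone at 1.04, and CS (citrate synthase) at 0.97 ± 0.35, while the cytosolic malate dehydrogenase MDH1 was below (-0.64 ± 0.07). These counts moved with the settings. Without centring 1 of 20 features was above (6.38% of all features there), and with only the Cy3-kidney arrays 2 of 19 (20.2%). In neither setting did the share above exceed the background. Without Kidney 1 the list median was 0.28, against 0.03 for all features. With only the Cy5-kidney arrays 12 of 18 were above (802 of 4818 features there). It was 12 of 20 without the array of Kidney K in Cy3 (15.5% of all features there). Nuclear genes of oxidative phosphorylation had 5 of 54 features above and 7 below, both under the background share, with a median of -0.17 that was 0.26 with only the Cy5-kidney arrays and 0.12 without the array of Kidney K in Cy3. Without Kidney K 2 were above and 2 below, and with only the Cy3-kidney arrays 3 were above and 17 below. UQCRC1 of complex III (1.59 ± 0.07, other clone 0.79) and NDUFA10 of complex I (1.30 ± 0.01) were above, and NDUFA4L2 (-1.56 ± 0.60) and NDUFB8 (-1.12 ± 0.19) below.

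Genes of cell division and ribosomal proteins were below the reference. Of 31 features of cell cycle and DNA replication, 0 were above and 22 below, with a median of -1.28, and 18 to 24 were below in those alternatives. After PCLAF came the spindle protein TPX2 (-3.25 and -2.76 for Kidney 1, -2.31 and -3.24 for Kidney K), the nuclear import factor KPNA2 (-2.78 ± 0.29), STMN1 (-2.31), the helicase subunit MCM4 (-2.29) and PCNA (-1.95). CDK2 (0.37 and -0.10) and CCNE1 (-0.55) were not called. Cytosolic ribosomal proteins had 49 of 56 features below and 0 above, with a median of -1.26, the largest being RPS20 (-2.43 ± 0.87), RPL27 (-2.34 ± 0.46, other clone -1.65) and RPS21 (-2.11 ± 0.31). RPL27 stood at -2.55 and -1.48 for Kidney 1 and at -3.58 and -1.76 for Kidney K, lower in each RNA with kidney in Cy3. With only the Cy5-kidney arrays 27 ribosomal features were below and 1 above, and without Kidney K 31 were below.

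Protein synthesis, folding and turnover had more features below than above. Of 52 features of translation factors, 22 were below and 5 above, with a median of -0.57. EIF4A1, the helicase of the initiation complex (-1.76 ± 0.39, other clone -0.42 and not called), EIF2S2 (-1.72, other clone -1.37) and both clones of the poly(A)-binding protein PABPC1 (-1.62 and -1.59) were below. EIF4H, which stimulates that helicase, was above in 1 clone (2.39 ± 0.52), its other clone being at -0.15, and EEF2K, the kinase that inhibits elongation, in both (1.45 and 1.37). Of 45 mitochondrial ribosomal features, 16 were below and 2 above, with a median of -0.36. MRPL20 was above (2.51 ± 0.36) and MRPL55 below (-1.52 ± 0.23). Of 31 proteasome features, 20 were below and 2 above, with a median of -0.75. They include PSMD7 (-1.73 ± 0.40) and both clones of PSMC2 (-1.66 and -1.25) below and PSMD8 above (0.91 ± 0.28). Among 65 chaperone features, 23 were below and 5 above, with a median of -0.23. The chaperonin subunits CCT3 (-1.97 ± 0.28), CCT2 (-1.86 ± 0.26) and CCT8 (-1.58) were below. HSPD1, the mitochondrial chaperonin, was above at 2.68 ± 0.07 with single arrays at 2.65 and 2.81 for Kidney 1 and 4.60 and 0.65 for Kidney K, and HSPB1 had 1 clone at -2.01 ± 0.38 and 3 that were not called (-0.17, -0.36 and -0.47). Without Kidney K, where 11.5% of all features were below, the counts below were 9 translation, 9 mitochondrial ribosomal, 12 proteasome and 11 chaperone features, and without Kidney 1 the chaperones had 15.

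Of 90 features of splicing factors and hnRNPs, 23 were below and 11 above, close to the background on the low side, with a median of -0.13. RBM3, a cold-inducible RNA-binding protein, was below (-2.50 ± 0.22), as was U2AF1, which recognises the 3′ splice site (-1.70 ± 0.51), and RBM47 was above (2.09 ± 0.16). The helicase DDX5 had 1 clone above (2.61 ± 0.31), 1 at 0.15 and 1 below (-0.53). With only the Cy3-kidney arrays 37 of 86 features were below (28.5% of all features there), with only the Cy5-kidney arrays 11 of 86 (14.1% of all features there), and without Kidney K 13 of 90. The median was 0.05 with only the Cy5-kidney arrays and 0.07 without the array of Kidney K in Cy3. Of 10 histone features, both clones of H2AZ1 (-2.30 and -2.22) and H2AZ2 (-1.47 ± 0.24), variants made outside S phase, were below, and H2BC21 was above (2.05 ± 0.74). The median of the histone list was -0.14.

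The cytoskeleton list, which also holds annexins and galectins, had 28 of 47 features below and 2 above, with a median of -1.06. Below were VIM, LGALS3, the annexins ANXA1 (-3.17 ± 0.08) and ANXA2 (-2.76), the thymosins TMSB10 (-2.16) and TMSB4X (-2.10) and ARPC2 of the actin-nucleating complex (-1.79). Another ANXA1 clone (-0.70) was not called. Above were talin TLN1 (0.98 ± 0.17) and a clone of cofilin, CFL1, at 3.74 and 3.61 for Kidney 1 and at 2.94 and 4.35 for Kidney K (3.66 ± 0.02). Epithelial genes had 13 of 35 features above and 9 below, with a median of 0.79. The median was 0.99 with only the Cy3-kidney arrays and 0.13 with only the Cy5-kidney arrays. It was 0.41 without the array of Kidney K in Cy3, 0.48 without that of Kidney 1 in Cy3 and 0.46 without centring. Above were the cadherin CDH1 (3.01 ± 0.26), cingulin CGN (2.33 ± 0.22, other clone 1.13), both clones of the claudin CLDN1 (1.91 and 1.46) and occludin OCLN (1.52). The simple keratins KRT8 (-2.80 ± 0.66) and KRT18 (-2.50 and -2.48), the tetraspanin CD9 (-2.03, -1.89 and -1.28) and the claudins CLDN4 (-1.50) and CLDN7 (-0.85) were below. KRT19 was above (1.70), and a second CDH1 clone stood at 0.08.

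Transporters and pumps were near the background in both directions. Solute carriers had 17 of 78 features above and 14 below, with a median of 0.32 that was -0.07 with only the Cy5-kidney arrays and -0.01 both without centring and without the array of Kidney K in Cy3. The low side held 6 without Kidney K and 9 without either array in Cy3. After SLC7A7 came the iron exporter SLC40A1 (2.86 ± 0.37) and SLC27A2 above. The glutamate transporter SLC1A3 stood at -3.26 and -3.17 for Kidney 1 and at -3.27 and -3.13 for Kidney K, the closest agreement among the solute carriers named, and the zinc transporter SLC39A8 was also below (-1.73 ± 0.24, other clone -0.31 and not called). ATPases had 3 of 23 features above and 3 below, with a median of 0.03 that was -0.30 without centring, -0.19 with only the Cy3-kidney arrays and -0.09 without Kidney 1. With only the Cy3-kidney arrays 7 ATPase features were below, and without Kidney K 1 was above. Besides ATP1B1, the secretory pathway calcium pump ATP2C2 was above (1.77 ± 0.85), and the proton pump subunits ATP6V1E1 (-1.33 ± 0.01) and ATP6V1D (-0.72 ± 0.30) were below.

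Redox enzymes had 9 of 37 features above and 10 below (24.3% and 27.0%, against 16.9% and 20.9% of all features), with a median of 0.13. The median was -0.20 without centring, -0.14 without Kidney 1 and -0.24 with only the Cy3-kidney arrays, and the low side held 5 without Kidney K. GPX3, the selenium carrier SELENOP (2.45 ± 0.52) and catalase CAT (2.51 ± 0.49) were above. The thioredoxin TXN (-1.62 ± 0.19), the aldose reductase AKR1B1 (-1.36 ± 0.74) and the peroxiredoxins PRDX4 (-1.19 ± 0.30), PRDX1 (-1.07), PRDX2 (-0.93) and PRDX5 (-0.88) were below. TXN differed between the dye orientations, with -0.10 (Cy3) and -3.41 (Cy5) for Kidney 1 and -0.49 and -2.48 for Kidney K. Of 71 features of immediate early and stress genes, 12 were above and 19 below, with a median of -0.17, and the low side held 8 with only the Cy5-kidney arrays, 10 without Kidney K and 12 without its array in Cy3. JUNB, a subunit of AP-1, stood at -3.39 and -2.70 for Kidney 1 and at -3.49 and -2.66 for Kidney K (-3.06 ± 0.02, other clone -1.29), and the growth factor CCN2 (-2.68 ± 0.30) was also below. All 3 clones of TXNIP were above (4.74, 2.38 and 2.29), as were RHOB, a short-lived GTPase (2.85 ± 0.03), and 3 of 4 clones of the phosphatase DUSP6 (2.45, 2.14 and 1.15, with the other at 0.54).

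**Figure D2:**
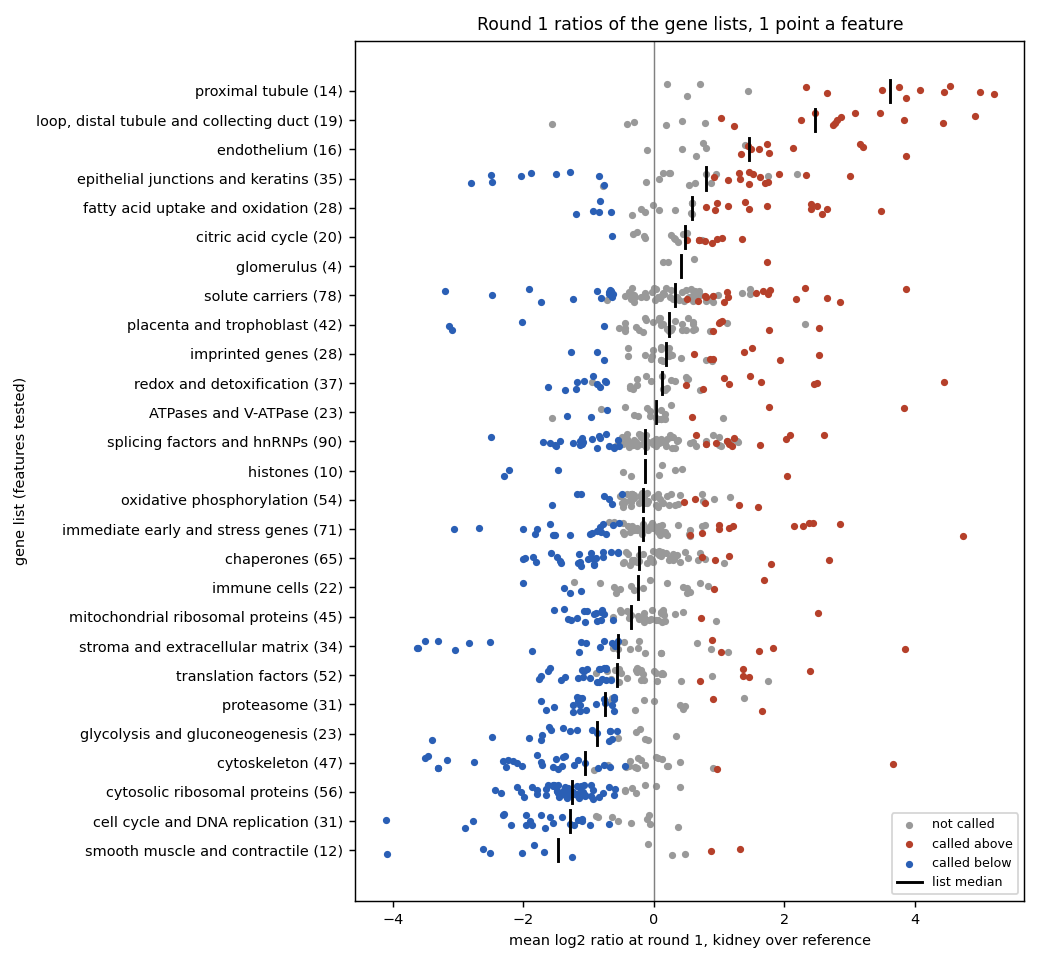
Mean log2 ratio of kidney over reference at round 1 (x axis) for every tested feature of 27 gene lists (y axis, number of features in brackets, ordered by the list median), with 1 point per feature, red for called above, blue for called below and grey for not called, and a black bar at the list median. The proximal tubule list has the highest median (3.63) and the contractile list the lowest (-1.48), and a feature in several lists appears in each.

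Clones of 1 gene did not always share a ratio. There were 905 genes with several tested features, 1988 features in all, and the median range between the clones of a gene was 0.66. Of the 541 such genes with any call, 356 had 1 clone called, 158 had several clones called in 1 direction and 27 had clones called in both directions. Every tested clone was called in 1 direction for 132 genes. The widest of the 27 was ARHGAP17, a GTPase-activating protein, with clones at 3.65 and -2.28. IGFBP3, which binds insulin-like growth factors, had 2.37, 0.30 and -2.24, and the trophoblast and blood transcription factor GATA2 had clones at 1.76 and -2.02, with the other 2 not called. Glutamine synthetase GLUL had 1 clone above and 3 below. The values given for a gene with 1 called clone are those of that clone, and which clone represents the gene was not tested.

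**Figure D3:**
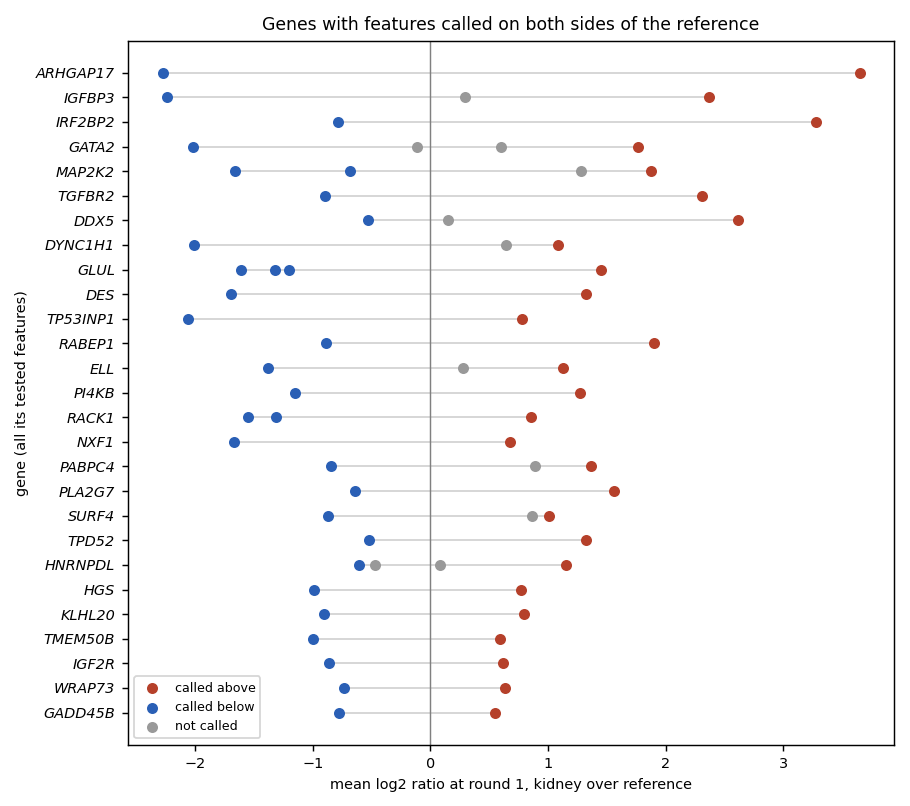
Mean log2 ratio of kidney over reference at round 1 (x axis) for every tested feature of the 27 genes (y axis, widest range at the top) that had features called on both sides of the reference. Red points are called above, blue points below and grey points not called, and a grey line joins the features of a gene. ARHGAP17 spans 3.65 to -2.28.

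The 4 arrays did not always share a sign. Of 5144 features with 1 gene and a value on 4 arrays, 2241 (43.6%) had the same sign on all 4. Another 826 (16.1%) had both RNAs above 0 in 1 dye orientation and below 0 in the other, of which 21 were called, and 153 (2.97%) had Kidney 1 on 1 side and Kidney K on the other in both dyes, of which 0 were called. Of all tested features 37.8% were called. Values on opposite sides of 0 average towards 0, so that few calls in these 2 sets follow from how they were picked. The median gap was 0.77 between dye orientations and 0.35 between RNAs. Among these 153, the widest gap was that of the sphingosine phosphate receptor S1PR2, at -1.42 and -3.25 for Kidney 1 and at 2.62 and 0.77 for Kidney K. SRRM1, a splicing coactivator, stood at -2.33 and -0.15 for Kidney 1 and at 4.33 and 0.81 for Kidney K, and CELF2, a splicing regulator, at -2.74 and -2.22 for Kidney 1 and at 2.01 and 0.07 for Kidney K. Another SRRM1 clone stood at -1.28 for Kidney 1 and 1.02 for Kidney K, and another CELF2 clone at -0.16 for Kidney 1 and 0.42 for Kidney K. The helicase RECQL5 had -2.16 and -0.50 for Kidney 1 and 2.39 and 1.57 for Kidney K.

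Among the 826, the dye gap was widest for UCK1, a uridine-cytidine kinase, with 3.01 (Kidney 1) and 4.27 (Kidney K) on the Cy3 arrays and -1.93 and -1.64 on the Cy5 arrays. TTC38 had 2.93 and 2.59 on the Cy3 arrays and -1.55 and -3.63 on the Cy5 arrays, and TEX10, a nucleolar protein of ribosome assembly, had 1.19 and 3.19 on the Cy3 arrays and -1.89 and -4.16 on the Cy5 arrays. These 3 genes and the 4 before them were chosen for their gaps, and none was called. Averaging a dye swap removes a dye effect that is equal in both orientations, and the part of dye in the called ratios was not tested beyond the single orientations, where 2405 features were called with Cy3 alone (998 above, 1407 below) and 1480 with Cy5 alone (802 above, 678 below).

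**Figure D4:**
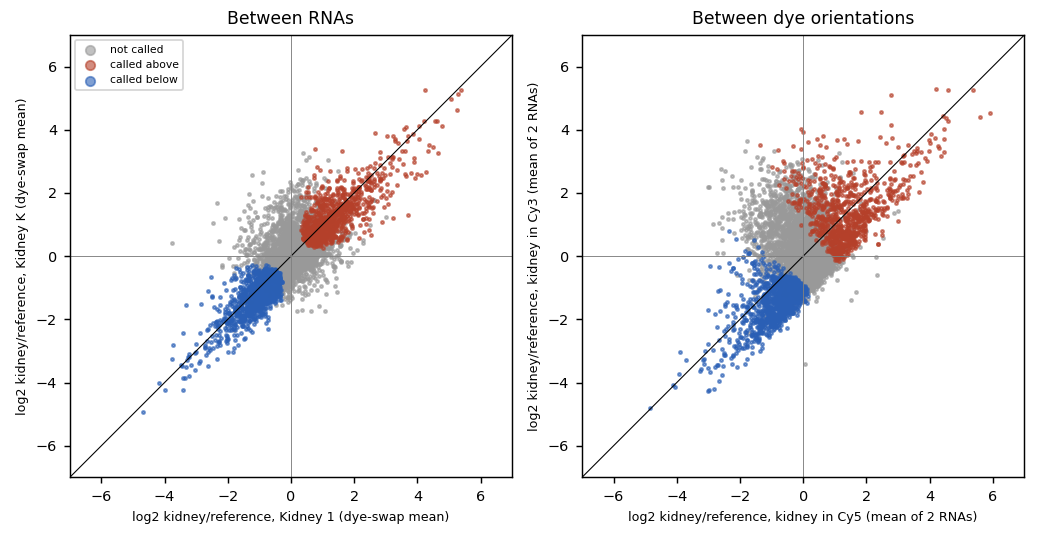
Centred log2 ratios of features measured on all 4 round 1 arrays. Left, Kidney K (y axis) against Kidney 1 (x axis), each a dye-swap mean; right, the mean of the arrays with kidney in Cy3 (y axis) against those with kidney in Cy5 (x axis). Points are features, red for called above, blue for called below and grey for not called, and the diagonal marks equal ratios. The median distance between the 2 values of a feature is 0.35 on the left and 0.77 on the right.

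The ratio at round 1 was then set against the mean of rounds 0, 2 and 3, to find where RNA amplified for 1 round stood apart from the rest of the series. All rounds were measured against the same reference, and limma called 38 of 5537 features (0.686%), 27 higher at round 1 (0.488%) and 11 lower (0.199%), with 1216 at an unadjusted p under 0.05. PNRC2, a nuclear receptor coactivator that also acts in mRNA decay, was highest among those on 4 arrays. Its ratio was 3.57 and 4.02 for Kidney 1 and Kidney K at round 1, against 1.18 and 1.30 at round 0, 0.49 and 0.77 at round 2 and -0.34 and 0.63 at round 3 (difference 3.12 ± 0.29, SE, adjusted p = 0.0242). Another PNRC2 clone stood at 0.93 at round 1. RHOB was 2.83 and 2.87 at round 1, against 0.95 and 0.70 at round 0, 1.19 and 1.57 at round 2 and -0.38 and -0.38 at round 3 (difference 2.24 ± 0.18, adjusted p = 0.0242). For both genes the round 1 RNAs lay above the RNAs of every other round. The deubiquitinase USP9X had the largest difference among the called features (3.24 ± 0.44, adjusted p = 0.0476), with 4.01 and 2.74 at round 1, but it was measured only with kidney in Cy3 there, and its 2 other clones stood at 0.41 and 0.58.

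The cargo receptor TMED5 (2.46), EIF4H (2.40) and HSPD1 (2.15) completed the 6 called features farthest above the other rounds, with adjusted p from 0.0416 to 0.0476. Also called higher were members of the lists, namely CD2AP (2.12), CFL1 (2.01) and a clone of PABPC4 (1.98), whose other clones stood at 0.89 and -0.84 against the reference at round 1. HSP90AA1 (1.94), MCL1 (1.27) and FMOD (1.28) were the other list members called higher. CFL1 and FMOD stood apart mainly from round 0: CFL1 averaged 3.66 at round 1, against -1.51 at round 0, 3.29 at round 2 and 3.20 at round 3, and FMOD averaged -0.55 at round 1, against -3.90 at round 0, -0.78 at round 2 and -0.81 at round 3. Of 71 immediate early and stress features, 2 were called higher (RHOB and MCL1) and 2 lower (FOSB and GADD45A), and 2 of 52 translation and 2 of 65 chaperone features were called higher.

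Among the features lower at round 1, some stood apart mainly from round 0 and others from every other round. PGLS, of the pentose phosphate pathway, was 0.58 and 0.44 at round 1, against 5.15 and 5.74 at round 0, 0.59 and 0.36 at round 2 and 0.62 and 0.59 at round 3 (difference -1.66 ± 0.21, adjusted p = 0.042). Another PGLS clone stood at 0.87 at round 1. FOSB, an AP-1 subunit, was -0.48 and -0.77 at round 1, against 2.68 and 2.90 at round 0, -0.26 and -0.10 at round 2 and -0.18 and -0.15 at round 3 (difference -1.44 ± 0.17), and a clone of H19 (-1.52 ± 0.17) was likewise high at round 0 alone. The deadenylase PARN (-1.38), the splicing regulator RBM5 (-1.24, with another clone at 2.02 against the reference) and RPP30, of ribonuclease P (-1.24), were lower than at each other round. RPP30 stood at -1.12 and -0.82 at round 1, against 0.58 and 0.30 at round 0, -0.19 and -0.05 at round 2 and 0.52 and 0.46 at round 3. Its round 1 values differed by dye, at -0.25 (Kidney 1) and -0.04 (Kidney K) in Cy3 and at -1.99 and -1.61 in Cy5. The cells of the 4 round 0 arrays were all deposited with 3 decimals and those of the 12 others were not (83.2% to 88.2%), so that a difference in how round 0 was processed cannot be told apart from round 0. Against rounds 2 and 3 alone, 11 features were called, 11 higher and 0 lower.

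These 38 calls were not stable. With the replicate names as a block limma called 0 features (1241 at an unadjusted p under 0.05), and it called 0 without either RNA of round 0, of round 2 or of round 3 or without Kidney K of round 1 (793 to 1154 unadjusted). Without Kidney 1 of round 1 it called 3, of which 0 were among the 38, without the array of Kidney 1 in Cy3 it called 7 and without that of Kidney K in Cy3 it called 24. Without centring, 1819 features were called (24 higher, 1795 lower).

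**Figure D5:**
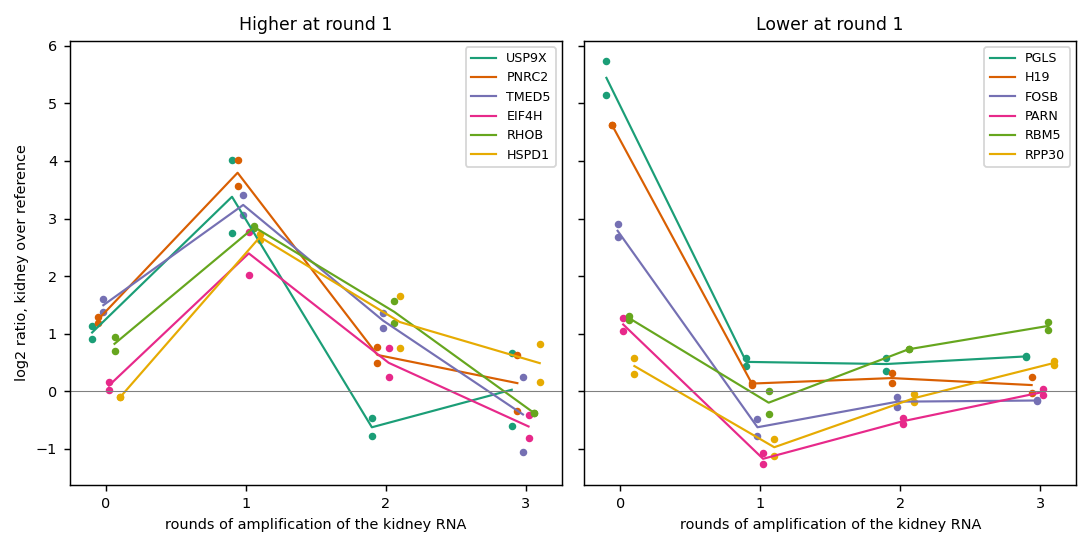
Log2 ratio of kidney over reference (y axis) by the rounds of amplification of the kidney RNA (x axis) for the 6 called features farthest above (left) and the 6 called features farthest below (right) the other rounds at round 1. Points are the dye-swap means of the 2 RNAs, set slightly apart by gene, and lines join the round means. PNRC2 and RHOB peak at round 1, and PGLS, H19 and FOSB are high only at round 0 among the 4 rounds.

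Against the reference, the count of calls rested on both RNAs. Without Kidney K of round 1 limma called 1161 features (522 above, 639 below), without Kidney 1 it called 1449 (612 above, 837 below), and with only the 2 round 1 RNAs in the fit it called 967 (489 above, 478 below).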

How the data were processed

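RNA of bovine kidney was isolated with Trizol, amplified, reverse-transcribed with amino-allyl dUTP and coupled to Cy3 or Cy5, per the labels' protocols. For 15 arrays the deposited values were read as log2 ratios between channels. For the round 1 array of Kidney 1 in Cy3, deposited log2 ratios are followed by 69 whole numbers that are no log ratios, 52 of them beyond 10 in size, so that the deposited column as a whole was recorded as a score. How the authors read the images, subtracted background or normalized is not given in the sources used here, and the direction of the ratio is not stated.

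Arrays with kidney in Cy3 were turned in sign, and values beyond 10 in size, among them a recurring code for an undefined ratio, were dropped. Duplicate spots, 8448 rows apart, were averaged, the median of the features with a listed gene was set to 0 on each array, and both arrays of an RNA were averaged. Tests used features with a listed gene and a value in all 8 kidney RNAs; a feature measured on only 1 array of a dye swap was kept. Of 8448 features, 5693 have a listed gene, 5598 with 1 symbol, of which 5591 were found in a current list of genes (0 symbols changed), and 2755 have none.

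R 4.3.3 with limma 3.58.1 and the package data.table (1.17.8) fitted a mean for each of 4 rounds by lmFit and eBayes, with 4 residual and 2.4 prior degrees of freedom. Round 1 was tested against 0, which leaves out the spread of the reference, and against the mean of rounds 0, 2 and 3. The 5537 p-values of each comparison were adjusted together by the Benjamini-Hochberg method, and 0.05 was the threshold. The number of arrays limits the precision. Only the limma fit was tested on simulated data, and the turning, centring and averaging of arrays were not.

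The arrays, the gene lists and the rule for named genes were chosen with earlier results of these data known. The rule takes the 12 largest and 12 smallest called ratios with 1 sign on 4 arrays, the 3 largest called in each direction from each list, the 6 largest called in each direction against the other rounds, and, among features with 4 values, the 4 widest gaps between RNAs and 3 between dyes where the RNAs or dyes lie on opposite sides of 0 on every array, with their other clones. Further members of lists, genes with opposed clones and the other genes called against the other rounds were named after their values were seen. H19 was taken out of the histone list, whose symbol pattern had matched it, after the values were seen. Alternatives changed the centring, scaling, limit on extreme values, duplicate spots, features, block, dye orientation, threshold and samples, 1 at a time.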

Additional observations from a re-analysis of the deposited data

Results flagged for a closer look

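The ratio at round 1 differed from the mean of rounds 0, 2 and 3 by the limma contrast for 15 named features. Those higher at round 1 were USP9X (3.24), PNRC2 (3.12), TMED5 (2.46), EIF4H (2.40), RHOB (2.24), HSPD1 (2.15), CD2AP (2.12), CFL1 (2.01) and PABPC4 (1.98), as log2 differences. Those lower were PGLS (-1.66), H19 (-1.52), FOSB (-1.44), PARN (-1.38), RBM5 (-1.24) and RPP30 (-1.24). Each passed at an adjusted p between 0.0242 and 0.0484, and 0 features passed with the replicate block or without any 1 RNA of rounds 0, 2 and 3. No group had 4 or more RNAs, so that no RNA was tested as lying far from the others of its round.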

How the results depend on the processing

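Of 2092 features called against the reference (937 above, 1155 below), 776 (348 above, 428 below) passed limma's treat against a log2 ratio of 0.58, a larger null by construction, and 967 (489 above, 478 below) passed with only the 2 round 1 RNAs. Without centring, 1466 passed (353 above, 24.1% of the calls, against 44.8% with centring). With both duplicate spots on every array 613 were above (21.5%) and 1005 below (35.2%) among 2857 tested, against 16.9% and 20.9% in the main fit. With only the Cy5-kidney arrays 678 were below. Leaving out an RNA gave 1161 to 2020 calls, 522 to 939 above and 639 to 1081 below. The other alternatives, among them scaling to 1 median absolute deviation, quantile normalization and a limit of 6, stayed within 1.5 times of these counts. Of the 38 features called between round 1 and the other rounds, leaving out an RNA left 0 to 3, treat 0, the array of Kidney 1 in Cy3 left out 7, that of Kidney K in Cy3 left out 24, all features with or without a gene 8, and rounds 2 and 3 alone 11. The count was 333 with both duplicate spots, 450 with 16 arrays singly and a dye term, and 1819 without centring; the cause was not tested. The names 1 and K were not shown to pair the RNAs, since their differences correlated above 0.1 in 1 of 6 pairs of rounds; with the replicate block 2081 features were called against the reference and 0 between round 1 and the other rounds. Among 141 named features, those no longer called numbered 12 without Kidney 1 of round 1, 17 without Kidney K, 19 with only the 2 round 1 RNAs, 14 with only the Cy5-kidney arrays and 23 under treat, and 0 to 8 under each other alternative. Of the 141, 2 changed sign with a call: S1PR2 was 1.70 without Kidney 1 of round 1 and -2.34 without Kidney K, and TEX10 was 2.19 with only the Cy3-kidney arrays. Not all of the 141 were tested in every alternative, and the counts no longer called leave out those not tested. With only the Cy5-kidney arrays 132 were tested, with only the Cy3-kidney arrays 138, and with both duplicate spots on every array 77. Leaving out the array of Kidney K in Cy3, requiring all 4 round 1 arrays, dropping the last 69 spots of Kidney 1 in Cy3 and the alternatives for the lists were chosen after seeing the data. Where leaving out an RNA leaves 1 in its round, that RNA is assumed to vary like those of the other rounds.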
